A study of Mus musculus with 2 samples.

Results

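Antimicrobial and mucosal defence genes were followed across the epithelial and myeloid cells of the adult mouse vomeronasal organ (VNO). The set held 10 genes of the 32285 genes counted. It was chosen by name and not by a rule on measured values, but with earlier results of these data known. By role, the set comprised the defensin Defb1, the C-type lectin Reg3g, the BPI-fold proteins Bpifa1 and Bpifb1, the secreted glycoproteins Ltf and Dmbt1, the peptidoglycan-binding protein Pglyrp1, the lysozyme Lyz2 and the neutrophil granule proteins Camp and Ngp. All 10 were detected in the cells described here.

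These proteins guard wet surfaces by several routes. Defensins and cathelicidin (the product of Camp) disturb microbial membranes, REG3G and the peptidoglycan recognition protein PGLYRP1 bind bacterial cell wall, lysozyme cuts that wall, and lactoferrin (Ltf) withholds iron. DMBT1 is a large scavenger-receptor glycoprotein that aggregates bacteria, BPIFA1 and BPIFB1 are secreted proteins of the upper airway, and neutrophils store lactoferrin, cathelicidin and neutrophilic granule protein (Ngp) in granules that are filled while the cell matures in bone marrow.

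The cells came from whole VNOs of wild-type C57BL/6J male mice at postnatal day 60, with 5 animals named for the study, and no treatment or genetic change was applied to any of them. Dissociated cells were frozen, thawed and profiled as 2 droplet-based single-cell RNA libraries that count unique molecular identifiers (UMIs, 1 per captured RNA molecule) at the 3′ ends of transcripts. No source used here says how the animals were divided between the libraries, and p-values therefore measure a spread between 2 libraries that may be technical. The comparison implied by this design was between cell types within the organ, since both libraries carried the same label.

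The libraries held 12814 and 11270 barcodes with 108005626 and 95442231 UMIs. After the study's limits on genes and mitochondrial reads, 5694 and 4898 cells were kept, with medians of 6668 and 6650 UMIs. A doublet caller marked 1.19% and 2.12% of them, and 33 barcode sequences occurred in both libraries. Clustering with the defence genes left out gave 31 clusters, of which 23 were named from marker lists. The 4 epithelial classes were basal-like (1324 cells), non-sensory epithelial-like (529), gland-like (427) and sustentacular-like (339), and the 4 myeloid classes were macrophage-like (1648), monocyte-like (123), neutrophil-like (753) and dendritic-like (404). The sustentacular-like name rested on Fezf2 (13.1-fold over all other cells) and Cyp2a5 (12.1-fold). The same cluster also raised Krt8 by 6.87-fold, Krt18 by 6.41-fold and Cldn4 by 5.86-fold, which are on the non-sensory epithelial list. Of the rest of the sustentacular list, Ermn was at 3.51-fold, Cyp2g1 at 2.42-fold, Cbr2 at 1.90-fold and Sec14l3 at 0.59-fold. Ugt2a1 was at 0 in this cluster and in all other cells. Neutrophil-like cells were shallow, with a median of 1592 UMIs. Levels are given as CPM, a gene's UMIs per 1000000 UMIs of the class, in library 1 and library 2, and each value shares its library with the values of all other classes.

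Among these 8 classes, each member had one in which its level was highest in the mean of the libraries. Gland-like cells held the highest level of Ltf, Dmbt1, Bpifb1 and Pglyrp1, non-sensory epithelial-like cells of Reg3g and Bpifa1, basal-like cells of Defb1, and monocyte-like cells of Lyz2, Camp and Ngp. For Defb1, Reg3g, Ltf, Dmbt1 and Lyz2 the range of the libraries in that class lay apart from the range in the other 7 classes and the class did not change when the rare rich cells (24 cells with at least 10 UMIs of Bpifa1, Bpifb1, Camp or Ngp, chosen after seeing the data) were left out. The libraries also lay apart for Bpifa1 and Bpifb1, but those 2 lost their highest class without the rare rich cells. Outside the 8 classes, neuronal lineage-like cells had Bpifa1 at 1.16 and 2272 CPM, with a higher mean than non-sensory epithelial-like cells, of which 5007 of 5012 UMIs in library 2 were in 1 cell. For Pglyrp1 the gland-like and sustentacular-like ranges overlapped, and for Camp and Ngp the monocyte-like and neutrophil-like ranges did. All Camp and Ngp UMIs of monocyte-like cells were in 1 cell, which was called a doublet. Both genes were highest in neutrophil-like cells without called doublets, with a mitochondrial limit of 10%, or with defence genes kept in clustering.

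**Figure D1:**
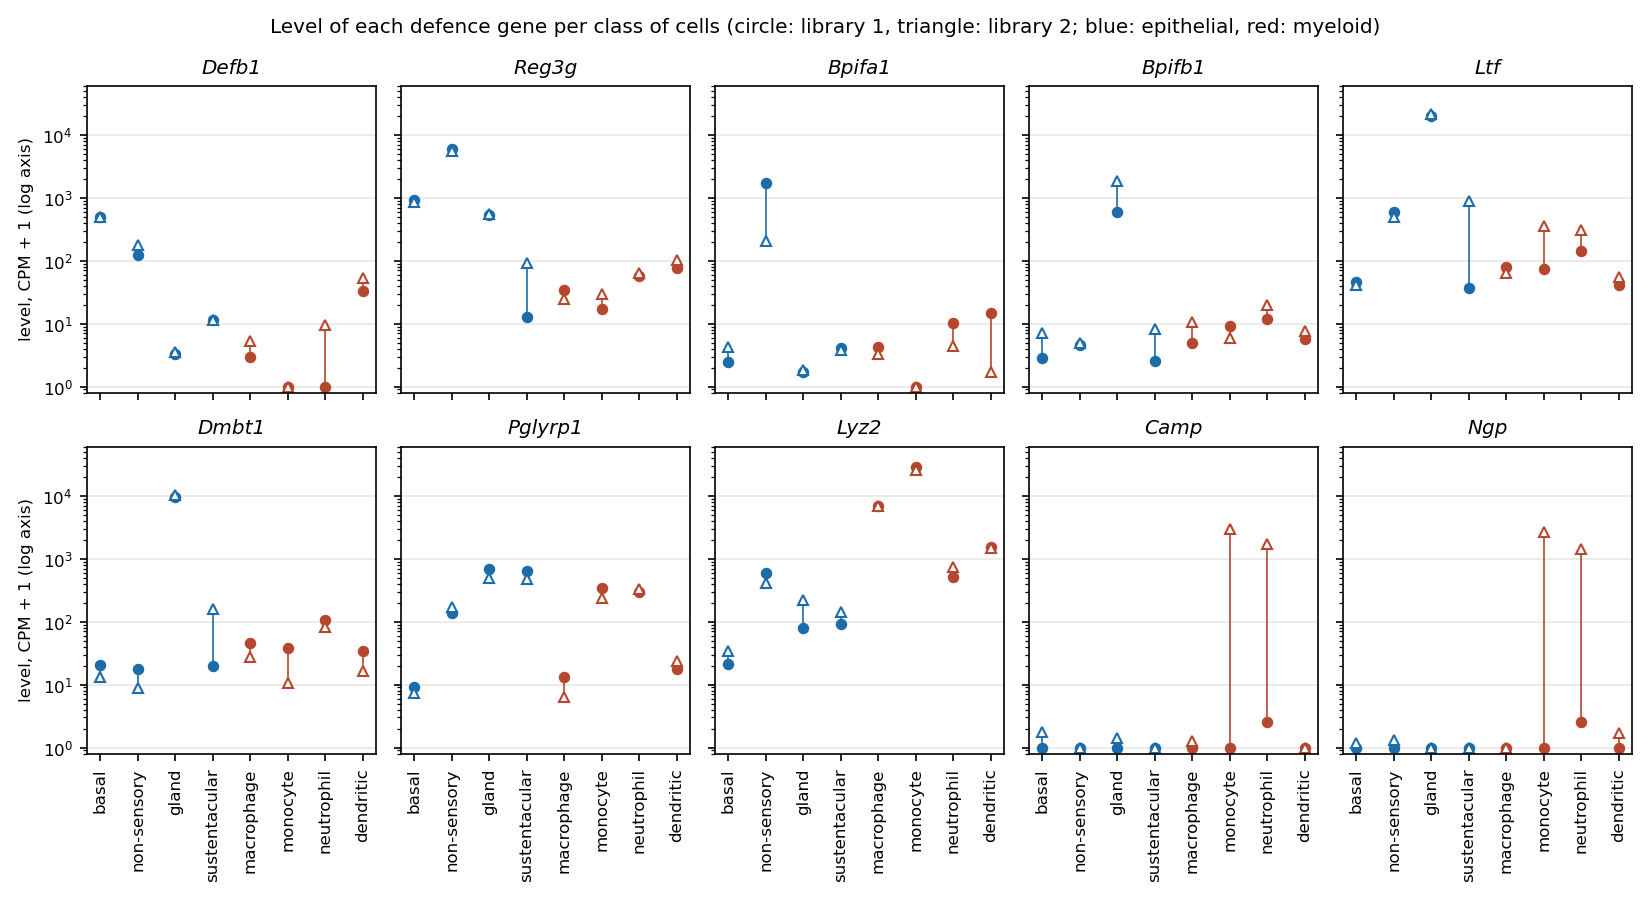
Level of each of the 10 genes, as CPM + 1 on a log axis, in 4 epithelial (blue) and 4 myeloid (red) classes, with a circle for library 1 and a triangle for library 2 joined by a line. Ltf and Dmbt1 stand far above their other classes in gland-like cells with both libraries together, while Bpifa1, Camp and Ngp have libraries far apart in the classes where they are highest.

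Defb1 encodes a beta-defensin that epithelia make without prior infection, and it lies at chr8:21776599-21795185 on the plus strand of mm10. It stood at 492 and 503 CPM in basal-like cells and at 122 and 176 CPM in non-sensory epithelial-like cells. Next of the 8 classes came dendritic-like cells at 31.7 and 51.8 CPM and sustentacular-like cells at 10.3 and 10.6 CPM, and gland-like cells were at 2.30 and 2.58 CPM. Libraries did not overlap between any neighbours among the 4 highest of the 8 classes. Without called doublets the dendritic-like level was 0.75 CPM, so that value rested on cells called doublets.

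The Defb1 signal was spread over many basal-like cells. At least 1 UMI was found in 82.3% of basal-like cells (95% exact binomial interval 80.2 to 84.3, median depth 8368 UMIs) and in 51.6% of non-sensory epithelial-like cells, against 1.14% of mature vomeronasal sensory neuron-like (VSN-like) cells, which had a median depth of 13826 UMIs and should lack the gene. After each cell was thinned to 1000 UMIs these shares were 34.4% and 11.6%. The median basal-like cell had 3 Defb1 UMIs and the richest cell of all held 34. Intervals of shares cover counting error only.

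Reg3g encodes a secreted lectin that binds peptidoglycan of Gram-positive bacteria, and it lies at chr6:78466269-78468872 on the minus strand. Its level was 6051 and 5463 CPM in non-sensory epithelial-like cells, 928 and 874 CPM in basal-like cells and 537 and 549 CPM in gland-like cells. The libraries of these 3 classes did not overlap. The other 5 of the 8 classes were at or below 101 CPM, whereas outside them neuronal lineage-like cells were at 613 and 1284 CPM, tuft-like cells at 276 and 287 CPM and fibroblast-like cells at 231 and 125 CPM. Of the 5, dendritic-like cells were at 13.7 CPM without called doublets and sustentacular-like cells had libraries far apart at 11.9 and 92.4 CPM. With a mitochondrial limit of 10% in place of 5%, the mean level was 8275 CPM in non-sensory epithelial-like and 2792 CPM in gland-like cells. At that limit dendritic-like cells were at 594 CPM, neutrophil-like cells at 323 CPM and sustentacular-like cells at 114 CPM.

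In non-sensory epithelial-like cells Reg3g was general, with at least 1 UMI in 91.7% of them (89.0 to 93.9) and in 74.6% after thinning. Basal-like cells had it in 50.8%, gland-like cells in 24.4%, mature VSN-like cells in 14.2% and T cell-like cells in 6.93%. The median non-sensory epithelial-like cell held 36 Reg3g UMIs. By contrast, 26 of the 427 gland-like cells had at least 10 UMIs and held 97.4% of that class's Reg3g, with a median of 0 per cell. In basal-like cells 275 cells with at least 10 UMIs held 86.6%.

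Defb1 and Reg3g therefore had different distributions within the same classes. Of 1324 basal-like cells, 144 had at least 10 UMIs of Defb1, 275 had at least 10 of Reg3g, and 42 had both. Median Reg3g was 2 UMIs in those 144 cells and 0 in the other basal-like cells. Of 529 non-sensory epithelial-like cells, 369 reached 10 Reg3g UMIs and 18 reached 10 Defb1 UMIs, and 15 reached both. Median Reg3g was 95 UMIs in those 18 cells and 35 in the others. The cells rich in Defb1 were thus not poor in Reg3g.

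Bpifa1 and Bpifb1 are neighbours on chromosome 2, at chr2:154142880-154149219 and chr2:154190818-154220369 on the plus strand, with 41.6 kb between them. The bases before the Reg3g and Bpifa1 starts are shown because both genes were highest in non-sensory epithelial-like cells and both windows hold the letters TATAAA, the core of the TATA box at which transcription of many genes is started. Sequences are from RefSeq on GRCm38.p6, 5′ to 3′ along the gene, with annotated exon bases left out and the matches to TATAAA on either strand in capitals. The Reg3g window is chr6:78468875-78469124 on the minus strand and the Bpifa1 window is chr2:154142630-154142879 on the plus strand.
Reg3g: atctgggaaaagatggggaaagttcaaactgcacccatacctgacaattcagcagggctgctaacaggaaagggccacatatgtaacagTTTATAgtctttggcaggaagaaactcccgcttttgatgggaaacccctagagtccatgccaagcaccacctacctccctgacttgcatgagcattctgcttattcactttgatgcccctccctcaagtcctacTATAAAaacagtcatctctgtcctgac
Bpifa1: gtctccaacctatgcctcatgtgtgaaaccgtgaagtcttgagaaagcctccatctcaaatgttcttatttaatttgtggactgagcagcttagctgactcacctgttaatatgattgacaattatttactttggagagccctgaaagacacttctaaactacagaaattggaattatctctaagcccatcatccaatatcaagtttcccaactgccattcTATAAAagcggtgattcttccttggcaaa
The first base of the Bpifa1 match lies 29 bases before the start, and the Reg3g window has 2 matches, of which the far one reads on the opposite strand. In all, 12.4% of 32851 RefSeq promoters hold TATAAA in a window of 250 bases, so a match alone is common. Of the 8 members with a promoter entry, Reg3g and Bpifa1 were the ones with this match in the window searched. A match describes letters and not use of the site.

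Bpifa1 stood at 1727 and 208 CPM in non-sensory epithelial-like cells and at or below 13.8 CPM in the other 7 classes. The libraries did not overlap with those of these 7 but lay far apart, and without its richest cell library 1 was at 14.7 CPM. Across all kept cells, 11 cells with at least 100 UMIs held 97.8% of 18516 Bpifa1 UMIs, and the richest held 5869. Both libraries had such cells, 7 in library 1 and 4 in library 2. By cluster, 3 of them were non-sensory epithelial-like, 1 was neuronal lineage-like and 7 were in unnamed clusters.

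The 11 Bpifa1-rich cells carried other members as well. They held 11 to 2201 Reg3g UMIs (median 634), against a median of 35 in the other non-sensory epithelial-like cells. Lyz2 ranged from 0 to 1764 UMIs (median 288, with at least 10 UMIs in 9 of the 11), against a median of 0. Pglyrp1 ranged from 1 to 252 UMIs (median 33) and Ltf from 0 to 262 (median 17). Defb1 had no UMI in any of the 11. Most of the 11 cells lay outside the non-sensory epithelial-like class used as the reference, some in unnamed clusters that also had high Reg3g. Serpina1e, a marker that named that class at 877 CPM, had 0 or 1 UMI in each of the 11. A reference from their own clusters was not made. These 11 cells were singled out after their values were seen, and no test was made on them.

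Bpifb1 was at 600 and 1853 CPM in gland-like cells and at or below 18.9 CPM in the other 7 classes. Again a few cells set the level, since 4 gland-like cells, 2 in each library, held 97.4% of 12329 UMIs with 52 to 7989 each. Without its richest cell, library 2 was at 137 CPM. The 4 cells had 271 to 447 Pglyrp1 UMIs (median 314, against 0 in the other gland-like cells) and 244 to 845 Dmbt1 UMIs (median 692.5, against 156). Their Ltf was 1 to 75 UMIs (median 5.5), against a median of 301 in the other gland-like cells. The 4 cells, with 19883 to 39617 UMIs in all, also had only 0 to 4 UMIs of Lcn3 and 2 to 7 of Obp2a. Both are markers that named the gland-like class, in which they stood at 102400 and 128100 CPM. Thus Bpifa1 and Bpifb1, although neighbours, were concentrated in different cells, and the highest Bpifb1 count in the 11 Bpifa1-rich cells was 3 UMIs.

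**Figure D2:**
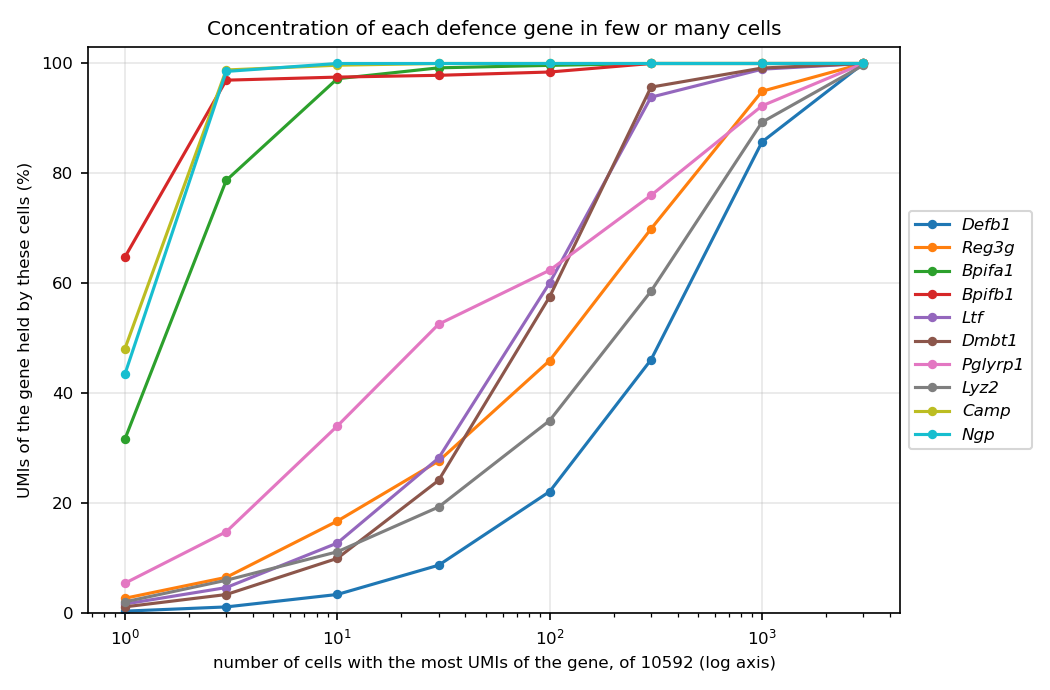
Percentage of each gene's UMIs (vertical axis) held by the cells with the most UMIs of that gene, for growing numbers of cells out of 10592 (horizontal log axis). Bpifa1, Bpifb1, Camp and Ngp reach at least 97.2% with 10 cells, whereas the 10 richest cells hold 3.44% of Defb1 and 34.1% of Pglyrp1.

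Lactoferrin, encoded by Ltf at chr9:111019271-111042767 on the plus strand, was at 20170 and 21305 CPM in gland-like cells. Of the 8 classes, non-sensory epithelial-like cells followed at 584 and 487 CPM, and basal-like cells were at 45.5 and 39.5 CPM. Outside the 8, tuft-like cells were at 1591 and 859 CPM, and without its richest cell library 1 was at 433 CPM there. Myeloid levels were 144 and 307 CPM in neutrophil-like, 72.9 and 352 CPM in monocyte-like and 79.6 and 63.6 CPM in macrophage-like cells, and without its richest cell the monocyte-like level in library 2 was 81.6 CPM. The sustentacular-like libraries, at 35.6 and 887 CPM, were split by 1 cell with 1248 Ltf UMIs, without which library 2 was at 200 CPM.

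Ltf was found in 98.6% of gland-like cells (96.0% after thinning), and the median gland-like cell held 298 UMIs. A total of 62.9% of non-sensory epithelial-like cells had at least 1 UMI, as did 19.8% of neutrophil-like cells. Classes that should lack the gene were also positive, at 20.3% of mature VSN-like and 14.96% of T cell-like cells with a median depth of 2993.5 UMIs. After thinning, non-sensory epithelial-like cells were at 22.3%, neutrophil-like cells at 12.4%, T cell-like cells at 5.64% and mature VSN-like cells at 1.56%. In non-sensory epithelial-like cells 71 cells with at least 10 UMIs held 79.0% of the class's Ltf.

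Dmbt1, at chr7:131032053-131121630 on the plus strand, was at 9731 and 10457 CPM in gland-like cells. In the other 7 classes the libraries were at or below 156 CPM, with non-sensory epithelial-like cells at 16.6 and 7.99 CPM. It was found in 98.4% of gland-like cells and in 11.5% of mature VSN-like cells. Most gland-like cells held both Ltf and Dmbt1. Of 427 cells, 381 had at least 10 Ltf UMIs, 367 had at least 10 Dmbt1 UMIs and 348 had both, a large overlap given shares this high. Median Dmbt1 was 200 UMIs in the cells with at least 10 Ltf UMIs and 7.5 in the other gland-like cells.

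The number of Dmbt1 UMIs for each Ltf UMI was compared over classes. Gland-like cells had a ratio of 0.483 in library 1 and 0.491 in library 2. Non-sensory epithelial-like cells had 0.0285 (95% interval 0.0215 to 0.0370) and 0.0164 (0.0105 to 0.0245), and pooled over the libraries their ratio of 0.0234 (0.0185 to 0.0292) was below that of the other 15 named classes. Other classes had libraries further apart than gland-like cells. Neutrophil-like cells had 0.720 (0.518 to 0.997) and 0.264 (0.187 to 0.366), on either side of the gland-like value, and macrophage-like cells had 0.568 (0.466 to 0.691) and 0.413 (0.321 to 0.529). Basal-like cells had 0.429 and 0.305, and sustentacular-like cells 0.522 and 0.176. Monocyte-like cells had 0.519 and 0.0274, where 57 of the 73 Ltf UMIs of library 2 lay in 1 cell that was called a doublet and was rich in Camp and Ngp. The part of free gland RNA in these counts was not tested.

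**Figure D3:**
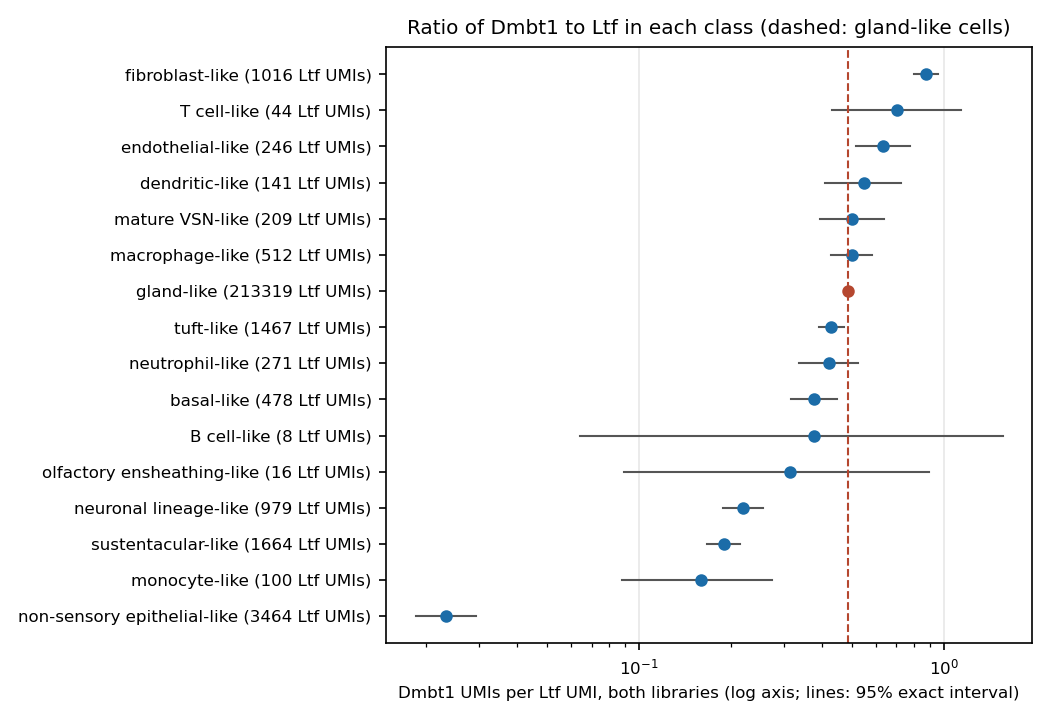
Dmbt1 UMIs per Ltf UMI in each of 16 classes of cells on a log axis, pooled over both libraries, with 95% exact intervals as lines and the number of Ltf UMIs in parentheses. The dashed line marks gland-like cells at 0.486, and non-sensory epithelial-like cells sit lowest at 0.0234.

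Pglyrp1, at chr7:18871331-18890459 on the plus strand, was measured in epithelial and myeloid classes alike. Its level was 687 and 495 CPM in gland-like cells, 632 and 481 CPM in sustentacular-like cells, 294 and 332 CPM in neutrophil-like cells and 340 and 236 CPM in monocyte-like cells. Non-sensory epithelial-like cells were at 137 and 169 CPM, and basal-like, macrophage-like and dendritic-like cells were at or below 22.6 CPM. Gland-like and sustentacular-like ranges overlapped, and so did those of neutrophil-like and monocyte-like cells, whereas the first pair lay above the second.

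The 2 leading classes differed in how the gene was distributed. Pglyrp1 was detected in 85.3% of sustentacular-like cells (81.0 to 88.9) with a median of 4 UMIs and at most 31. Gland-like cells had it in 48.2% with a median of 0, and 23 cells with at least 10 UMIs held 92.1% of the class's Pglyrp1, the richest with 940. After thinning, the shares were 41.4% in sustentacular-like, 9.75% in gland-like, 27.5% in monocyte-like and 22.6% in neutrophil-like cells, against 1.14% in mature VSN-like and 1.88% in T cell-like cells. Sustentacular-like cells had the highest level when the rare rich cells were left out.

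Lysozyme of myeloid cells, encoded by Lyz2 at chr10:117277331-117282321 on the minus strand, was at 29002 and 25843 CPM in monocyte-like cells. Macrophage-like cells were at 6824 and 6879 CPM, dendritic-like cells at 1558 and 1508 CPM and neutrophil-like cells at 507 and 753 CPM. The order monocyte-like, macrophage-like, dendritic-like held without overlap of libraries. Lyz2 was found in 99.2% of monocyte-like, 92.7% of macrophage-like, 71.0% of dendritic-like and 30.5% of neutrophil-like cells, against 13.5% of mature VSN-like and 6.20% of T cell-like cells. Its neighbour Lyz1 lies 5.48 kb from it and the transcripts are 95.96% identical over 1262 aligned bases, so the division of counts between them is uncertain.

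In epithelial classes Lyz2 was concentrated in few cells. In non-sensory epithelial-like cells, at 594 and 406 CPM, 10 cells with at least 10 UMIs held 97.8% of it, and library 1 was at 128 CPM without its richest cell. In gland-like cells, at 78.4 and 224 CPM, 9 cells held 93.8%, and library 2 was at 36.0 CPM without its richest cell. The median cell of both classes had 0 UMIs.

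Camp, Ngp and Ltf lie in this order on chromosome 9, with Camp at chr9:109847379-109849617 on the minus strand and Ngp at chr9:110419747-110423012 on the plus strand. Camp and Ngp are 570 kb apart and Ngp and Ltf are 596 kb apart. The windows before Ngp and Ltf are shown because these 2 granule-protein genes hold the letters TTGCNNAA, where N is any base, which is part of the motif of C/EBP factors that act in granulocyte maturation. Sequences are from RefSeq on GRCm38.p6, 5′ to 3′ on the plus strand, with matches on either strand in capitals. The Ngp window is chr9:110419558-110419746 and the Ltf window is chr9:111019042-111019270.
Ngp: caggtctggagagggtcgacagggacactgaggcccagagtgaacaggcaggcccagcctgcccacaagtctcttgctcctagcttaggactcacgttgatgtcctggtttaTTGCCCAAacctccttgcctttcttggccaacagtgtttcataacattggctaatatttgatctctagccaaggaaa
Ltf: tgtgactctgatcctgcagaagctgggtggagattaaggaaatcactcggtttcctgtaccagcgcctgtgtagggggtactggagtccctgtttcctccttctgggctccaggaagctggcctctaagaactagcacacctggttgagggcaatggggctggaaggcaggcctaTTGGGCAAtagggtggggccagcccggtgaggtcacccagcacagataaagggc
Counted from the RefSeq start, the match begins 138 bases before that of Ngp and 75 bases before that of Ltf, where it reads on the opposite strand. For both genes the RefSeq start lies beyond the end of the printed window, because annotated exon bases were left out. The match is therefore nearer to the annotated gene starts given above than these distances. Windows of the same length hold TTGCNNAA in 7.76% and 9.02% of all RefSeq promoters. No printed match to TTGCNNAA overlaps a match to TATAAA. Camp had no match in the shorter window of 89 bases left to it.

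Camp and Ngp were nearly absent from library 1. Camp was at 1.55 CPM in library 1 and 1688 CPM in library 2 in neutrophil-like cells, and at 0 and 2977 CPM in monocyte-like cells. Ngp was at 1.55 and 1421 CPM and at 0 and 2684 CPM in the same classes. These levels were set by 3 cells of library 2, which held 98.8% of all 1608 Camp UMIs and 98.6% of all 1386 Ngp UMIs. Of these cells 2 were neutrophil-like and 1 was monocyte-like, and 2 of the 3 were called doublets.

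Each of the 3 cells held 197 to 774 Camp UMIs and 206 to 603 Ngp UMIs. They also held 22 to 57 Ltf, 12 to 26 Pglyrp1 and 95 to 130 Lyz2 UMIs, against a median of 0 for each of these in the other neutrophil-like cells. These counts were not scaled for depth, and the 3 cells had 7064 to 11559 UMIs against a neutrophil-like median of 1592. The median monocyte-like cell held 86 Lyz2 UMIs. Elsewhere the genes were rare: Camp had a UMI in 5 of 753 neutrophil-like cells and Ngp in 6, and in mature VSN-like cells both were in 0 of 704, which allows a share of cells with a UMI of up to 0.426% (3 counts of the total). A level for these genes in either library describes those few cells and not the class.

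Differences between classes were tested by the quasi-likelihood method of edgeR, adjusted by Benjamini-Hochberg, on UMIs summed by class and library, 2 sums against 2, over all genes with at least 10 UMIs. The members were left out of the genes used for clustering. Genes with a like pattern over classes, such as Lcn3 for Dmbt1 and Serpina1e for Reg3g, were not left out, and both were naming markers. The same cells also gave the classes and the sums, so the tests are not independent of how the classes were made. Differences are log2 values of the first class minus the second, with the standard error (SE), and a gene was called at an adjusted p under 0.05.

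**Figure D4:**
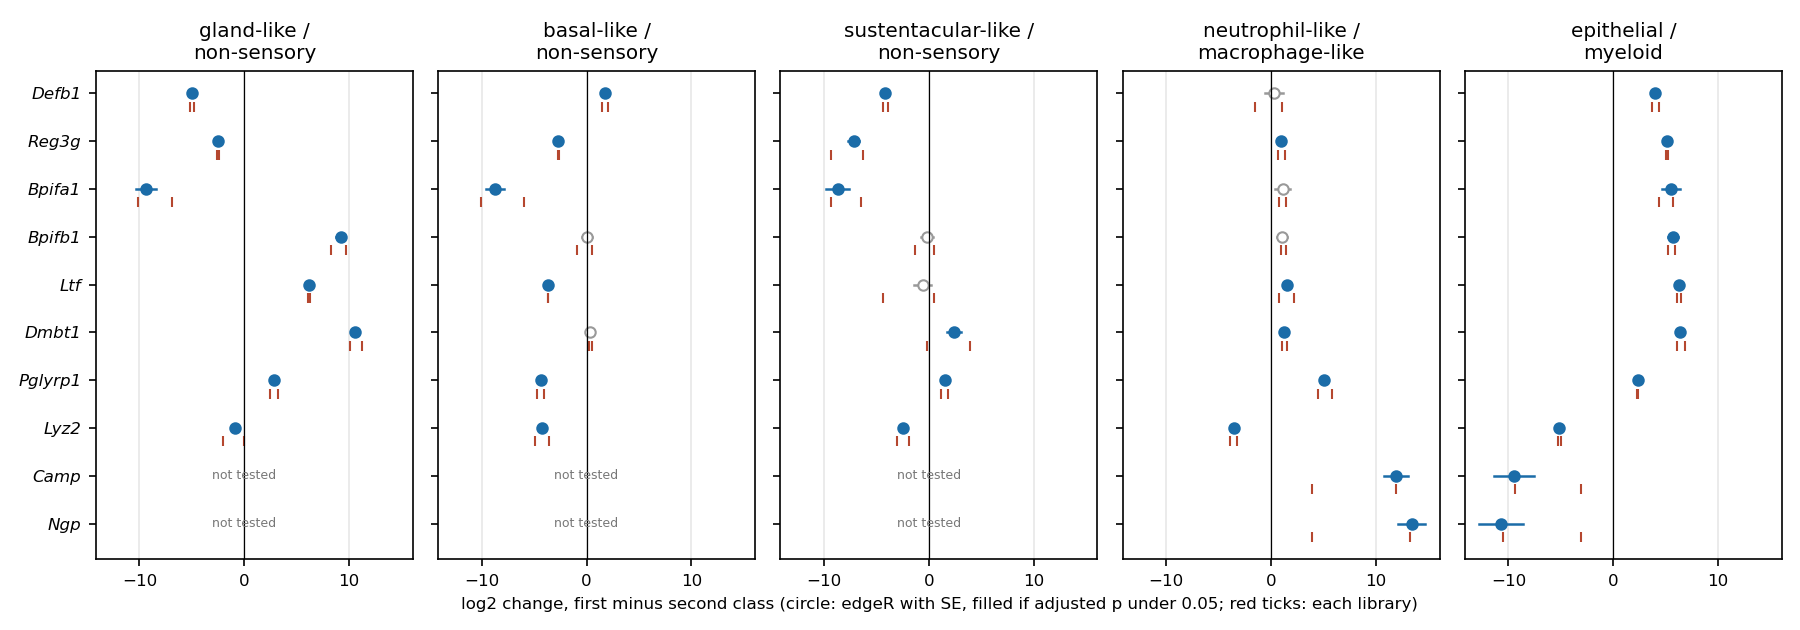
Log2 difference of each gene in 5 comparisons between classes, first minus second, from edgeR with its standard error (circles, filled where the adjusted p was under 0.05) and in each library alone (red ticks). In gland-like against non-sensory epithelial-like cells 4 of 8 tested genes lie to the right and 4 to the left, and Lyz2 has 1 library near 0.

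Gland-like cells divided the members evenly against non-sensory epithelial-like cells. Of 8 members tested, 4 were higher in gland-like cells and 4 were lower, where 45.6% of all genes tested were called (22.8% higher and 22.8% lower). Dmbt1 was higher by 10.55 (SE 0.23, edgeR adjusted p = 5.8e-15) and Ltf by 6.17 (SE 0.11, edgeR adjusted p = 2.3e-16), in both libraries. Pglyrp1 (2.87, and 3.76 without the rare rich cells) and Bpifb1 (9.21) were also higher. Defb1 was lower, at -5.02 (SE 0.23, edgeR adjusted p = 4.5e-11), and so were Reg3g, at -2.51 (SE 0.10), and Bpifa1, at -9.37. The differences of Bpifa1 and Bpifb1 were carried by the few rich cells: without them the values were 0.62 and -0.88, with edgeR adjusted p of 0.574 and 0.210.

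Lyz2 was called lower in gland-like cells, at -0.87 (SE 0.29, edgeR adjusted p = 0.0224), but the libraries gave -1.99 and 0.00. The call did not hold under other settings, since the value was 1.91 without the rare rich cells and 0.37 with the mitochondrial limit at 10%. Scaling mattered here, because edgeR's TMM scaling (which sets the bulk of genes to no change) placed every value 0.90 above plain CPM. Under plain CPM the median of all genes was -0.83, and no member changed sign. Wfdc18 alone stood at 264850 and 291140 CPM in gland-like cells.

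Basal-like cells differed from non-sensory epithelial-like cells in 6 of 8 members tested, where 13.2% of all genes tested were called (6.63% higher and 6.54% lower). Defb1 was higher in basal-like cells, by 1.74 (SE 0.14, edgeR adjusted p = 1.5e-07). The other 5 were lower: Reg3g at -2.69 (SE 0.10), Ltf at -3.66 (SE 0.15), Lyz2 at -4.25 (SE 0.21), Pglyrp1 at -4.38 (SE 0.18) and Bpifa1 at -8.71. Bpifb1 (0.01, edgeR adjusted p = 0.991) and Dmbt1 (0.34, edgeR adjusted p = 0.566) did not pass the test. Without the rare rich cells Bpifa1 was 1.29 and not called (edgeR adjusted p = 0.259), Lyz2 was -1.47 and Pglyrp1 was -3.14, both still called. With the library as a block 2765 genes were called in place of 1764.

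In sustentacular-like cells 2 of 8 members tested were higher than in non-sensory epithelial-like cells and 4 were lower, where 37.3% of all genes tested were called (19.2% higher and 18.2% lower). Pglyrp1 was higher by 1.53 (SE 0.16, edgeR adjusted p = 1.2e-05) in both libraries. Reg3g was lower, at -7.17 (SE 0.56), as were Defb1, at -4.17 (SE 0.23), Bpifa1, at -8.70, and Lyz2, at -2.48. Without the rare rich cells Pglyrp1 was 2.76 and still called, whereas Bpifa1 was 1.26 and Lyz2 0.30, and neither was called.

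Dmbt1 was called higher in sustentacular-like cells, at 2.41 (SE 0.69, edgeR adjusted p = 0.0171), with -0.17 in library 1 and 3.90 in library 2, and 1 sustentacular-like cell took its library 2 level from 59.8 to 156 CPM. With a mitochondrial limit of 10% it was 0.59 and not called (edgeR adjusted p = 0.247). In that library Wfdc18, a gland-rich whey-acidic-protein gene, was at 8079 CPM in sustentacular-like cells against 476 CPM in library 1. The part of gland RNA or of gland cells in the Dmbt1 value was not tested. Ltf did not pass (-0.60, edgeR adjusted p = 0.591), with -4.36 in library 1 and 0.51 in library 2. It was called with the library as a block, at -1.46 (edgeR adjusted p = 4.2e-57). Because the 2 libraries gave opposite signs, that p does not measure agreement between them, and no decrease is read from it. With a mitochondrial limit of 10% Ltf was also called, at -2.49 (edgeR adjusted p = 7.5e-06).

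Between neutrophil-like and macrophage-like cells all 10 members could be tested, and 6 were higher and 1 lower in neutrophil-like cells, where 43.9% of all genes tested were called (19.8% higher and 24.1% lower). Pglyrp1 was higher by 5.04 (SE 0.22, edgeR adjusted p = 2.9e-23) and Lyz2 lower, at -3.55 (SE 0.13, edgeR adjusted p = 2.1e-26), in both libraries. Ltf was higher by 1.53 (SE 0.20), Dmbt1 by 1.27 (SE 0.23) and Reg3g by 0.93 (SE 0.25). Those 3 genes, which gland-like or non-sensory epithelial-like cells hold at far higher levels, were not called when all 8 classes were fitted together (edgeR adjusted p = 0.0665, 0.0511 and 0.102), and neutrophil-like cells were the shallower class. Within macrophage-like cells, a shallow cluster of 498 cells (median 843.5 UMIs) had Ltf at 303, Dmbt1 at 123 and Reg3g at 98.6 CPM. With the libraries pooled, these values lay above the 221, 93.0 and 58.7 CPM of neutrophil-like cells. The largest macrophage-like cluster (747 cells, median 5477 UMIs) had 53.5, 32.9 and 25.4 CPM. The higher values therefore did not hold against each macrophage-like cluster. The part of free epithelial RNA in these 3 genes was not tested.

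Camp and Ngp were also higher in neutrophil-like cells, where 2 cells held most of the UMIs. In the summed counts Ngp was at least 1604-fold higher, taking 3 UMIs over both libraries as the floor for macrophage-like cells, which had none. Camp had 981 UMIs against 1, a ratio of 5715 with a counting interval of 1023 to 225950. Both figures treat the UMIs of those 2 cells as separate counts and do not describe the class. Without the rare rich cells the log2 differences were 7.80 for Ngp and 5.29 for Camp, both still called, on few UMIs. In library 1 neutrophil-like cells had 1 UMI of each gene and macrophage-like cells none. Defb1, Bpifa1 and Bpifb1 did not pass, although with a mitochondrial limit of 10% Defb1 (4.09, edgeR adjusted p = 3.6e-07) and Bpifa1 (2.26, edgeR adjusted p = 0.0042) were called.

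Across the summed epithelial and myeloid classes all 10 members were called, where 60.1% of all genes tested were called (31.1% higher and 29% lower). The 7 members higher in epithelial cells were Dmbt1 (6.36, SE 0.22), Ltf (6.28, SE 0.14), Bpifb1 (5.69), Bpifa1 (5.48), Reg3g (5.12, SE 0.14), Defb1 (3.98, SE 0.19) and Pglyrp1 (2.31, SE 0.18). Lyz2 was lower in epithelial cells, at -5.15 (SE 0.12, edgeR adjusted p = 1.4e-11), and so were Camp and Ngp. The sums depend on how many cells each class gave, so they describe these suspensions. Without the rare rich cells Bpifa1 and Bpifb1 turned to -1.05 and -1.35, Camp was not called (edgeR adjusted p = 0.0937), and with all 8 classes in 1 fit Bpifa1, Camp and Ngp were not called.

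A list of 64 other genes of mucosal and antimicrobial defence gave the surrounding pathway. In gland-like against non-sensory epithelial-like cells 22 of them were tested, 13 were higher and 7 lower, with a median log2 difference of 1.17 against -0.01 for all genes, of which 22.8% were called each way. Those highest by difference were Wfdc18 (7.78), Agr2 (5.63), a folding enzyme of mucus-making cells, Hp (5.36), Pigr (5.28), the carrier of IgA across epithelia, and the trefoil factor Tff2 (5.23). Lower in gland-like cells were Adm at -5.40, Rnase4 at -3.10, Ang at -2.48, and 2 genes with no UMI there, Lyz1 and Duox1, which were at least 83.4-fold and 5.88-fold lower (floor of 3 UMIs over both libraries) than in non-sensory epithelial-like cells. Lyz1 had 4 UMIs in library 1 and 152 in library 2 of non-sensory epithelial-like cells. Apart from Wfdc18, the highest levels on the list were Wfdc2 in non-sensory epithelial-like cells, at 4781 and 4569 CPM, and the surfactant protein Sftpd in sustentacular-like cells, at 1001 and 905 CPM.

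In basal-like against non-sensory epithelial-like cells 3 of 23 tested genes of that list were higher and 12 lower (median -1.11), where 6.63% and 6.54% of all genes were called higher and lower with a median of 0.00. In sustentacular-like cells 5 of 21 were higher and 11 lower (median -1.55), where 19.2% and 18.2% of all genes were, with a median of -0.01. In neutrophil-like against macrophage-like cells 13 of 23 were higher and 5 lower (median 1.48), where 19.8% and 24.1% of all genes were, with a median of -0.21. The protease inhibitor Slpi had 1058 UMIs against 3, Hp was higher by 9.14 and Lcn2, which binds bacterial siderophores, by 7.20. Saa3 had 21 UMIs against 1, and Cd177, a neutrophil surface protein, had 11 against none and was at least 21.4-fold higher. Rnase4 was lower at -4.85 and the iron carrier Trf at -2.73, and Ang had 3 UMIs against 633. Jchain and Igha, which belong to plasma cells, had 2 against 64 and 1 against 115. In epithelial against myeloid cells 14 of 28 were higher and 13 lower (median 1.92), where 31.1% and 29% of all genes were, with a median of 0.06.

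The genes whose levels over 16 named classes were most like each member were found by Pearson correlation of log2(CPM + 1). These coefficients describe 16 classes that share libraries and depth. Defb1 was nearest to Col17a1 (0.961), Krt5 (0.913) and Aqp3 (0.905), and Reg3g to Cyp2f2 (0.923), Cxcl17 (0.920) and Serpina1e (0.917). Ltf was nearest to A2ml1 (0.958), Wfdc18 (0.947) and Lrrc26 (0.898), Dmbt1 to Lcn3 (0.986), Wfdc18 (0.944) and Agt (0.936), and Bpifb1 to Sbpl (0.974), Scgb1b7 (0.969) and Gp2 (0.968). Lyz2 was nearest to Gm36161 (0.935), Gm21188 (0.911) and Sirpb1a (0.903). Pglyrp1, measured in both lineages, had the weakest likeness of these, with Ceacam1 (0.769), Pigr (0.761) and Fut2 (0.747). Bpifa1 was nearest to Cnfn (0.939), Krt6a (0.904) and Fezf1 (0.861), and Camp and Ngp both to Trem3, Chil3 and Gm5150, on the strength of the few cells described above.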

How the data were processed

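UMI counts per gene and barcode were deposited by the authors as a filtered matrix of 2 libraries merged by Cell Ranger 4 on mm10. Whether the merge evened out depth, and the strand and multi-mapping settings, are not given in the sources used here. Per the labels, bcl2fastq and Seurat 3.2.3 were also used.

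The limits were 200 to 9000 genes and no more than 5% mitochondrial UMIs, which left 10592 of 24084 barcodes (10582 when exactly 5% is left out), and gene counts were used without correction for free RNA. Clusters were made in Seurat 5.3.0 (R 4.3.3) from 2000 variable genes less 33 defence genes, 30 principal components and resolution 0.8, and named where at least 3 fixed markers of 1 list were 4-fold over other cells, unless the leading genes pointed elsewhere or a shallow cluster raised markers of 2 lists. The sustentacular-like cluster was named by hand from 2 markers. Doublets were called with Scrublet in scanpy 1.11.5 (expected rate 8%) and kept in the main values. CPM is UMIs of a gene per 1000000 UMIs of the class in a library. UMIs were summed by class and library and tested in edgeR 4.0.16 with TMM scaling, genes with at least 10 UMIs, Benjamini-Hochberg over all of them and a threshold of 0.05. The code was tested on simulated data. Shares have exact binomial intervals (scipy 1.17.1, 95%), and cells were thinned to 1000 UMIs for comparison. Alternatives were DESeq2 1.42.0, no filter on low counts, all 8 classes in 1 fit, the library as a block, no doublets, a mitochondrial limit of 10%, defence genes kept in clustering, each library left out and, chosen after seeing the data, cells with at least 10 UMIs of Bpifa1, Bpifb1, Camp or Ngp left out.

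The members and lists were chosen with earlier results of these data known. Named genes were the 10 members and, of 64 other defence genes, the 5 with the largest change each way that were called and moved the same way in both libraries (gland-like against non-sensory epithelial-like and neutrophil-like against macrophage-like cells), the 3 with the highest level, and the 3 genes most like each member. Cells rich in a member were chosen after values were seen. Equal library numbers in 2 classes mark the same capture. The deviations of same-numbered sums correlated at 0.050 to 0.155 across genes. Gene positions are from GENCODE on mm10, and promoter sequences from RefSeq (8 of 10 members matched).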

Additional observations from a re-analysis of the deposited data

Results flagged for a closer look

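Barcodes removed by the cell limits, 13492 in all and 13356 of them for mitochondrial reads, also carried the defence genes, and no comparison used them. They held 56.2% of all UMIs, with a median mitochondrial share of 8.53%. Reg3g had 228043 UMIs there, 74.0% of its total, at 1995 CPM against 899 CPM in kept cells. Pglyrp1 had 58943 UMIs there, 77.5% of its total, at 516 CPM against 192 CPM. The other epithelial members were at lower CPM than in kept cells, with 187246 UMIs of Ltf, 30825 of Dmbt1, 6726 of Bpifa1, 4554 of Defb1 and 556 of Bpifb1. Lyz2 had 29634 UMIs, Ngp 7 and Camp 6. At least 10 Reg3g UMIs were found in 1639 of these barcodes and at least 10 Pglyrp1 UMIs in 1487. The cell types of these barcodes were not assigned.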

How the results depend on the processing

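Of 352 alternative values of the members' log2 differences (with both libraries), 327 kept their side of the threshold, and also their direction wherever they were called. Of the others, 11 lost the call, 5 gained it and 9 changed sign with a call in the main or the alternative fit. A change of sign without a call in either fit was counted among the 327. Lyz2 in gland-like against non-sensory epithelial-like cells became 0.37 with the 10% mitochondrial limit and 1.91 without the rare rich cells, and ranged from -1.99 to 0.0031 with 1 library left out. Without the rare rich cells, Bpifa1 became 0.62, 1.29 and 1.26 in gland-like, basal-like and sustentacular-like against non-sensory epithelial-like cells, Bpifb1 became -0.88 in gland-like cells, Lyz2 became 0.30 in sustentacular-like cells, and in epithelial against myeloid cells Bpifa1 became -1.05 and Bpifb1 -1.35, because the cells that held these UMIs were removed. Dmbt1 in sustentacular-like cells ranged from -0.17 to 3.90 with 1 library left out, a value with no test, and its call was lost under DESeq2 (adjusted p = 0.216) and with the 10% mitochondrial limit (0.59, edgeR adjusted p = 0.247).

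Counts of called genes fell under DESeq2 from 5872 to 3490 (gland-like), 1764 to 959 (basal-like) and 4853 to 2697 (sustentacular-like against non-sensory epithelial-like cells) and from 5273 to 3442 (neutrophil-like against macrophage-like cells). With the 10% mitochondrial limit they rose to 3326 (basal-like) and 7630 (sustentacular-like), where more cells entered each class. With the library as a block, the paired fit called 2765 genes in the basal-like comparison. It added the Ltf call in sustentacular-like cells, although the libraries gave opposite signs there, and it changed no other call of a member. With all 8 classes in 1 fit, 4 members in place of 7 were called between neutrophil-like and macrophage-like cells. Without the rare rich cells 5 of 10 members kept their highest class, and with 1 library left out 8 to 10 did. For Camp and Ngp, 3 cells held nearly all UMIs. The highest class of these genes also moved to neutrophil-like cells without called doublets, with the 10% mitochondrial limit and with defence genes kept in clustering.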

Other observations

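Defence genes were also found in the clusters left unnamed, which held 25.2% of the Reg3g, 36.8% of the Bpifa1 and 35.7% of the Pglyrp1 UMIs of kept cells. A cluster of 239 cells raised basal markers (Krt15 by 19.6-fold and Krt14 by 10.8-fold) but was led by keratins of stratified epithelium (Krt13, Krt4 and Krt6a), and it had Defb1 at 354 and 452 CPM and Reg3g at 2818 and 2512 CPM, with Defb1 in 84.1% of its cells. Another of 173 shallow cells (median 1033 UMIs), led by genes of motile cilia such as Sntn, Tmem212 and Ccdc153, raised 3 ciliated and 3 non-sensory epithelial markers and had Reg3g at 19748 and 22238 CPM and Pglyrp1 at 5733 and 5363 CPM. Lyz2 stood at 4918 and 6926 CPM there but in 12.1% of the cells. In a cluster of 291 deep cells (median 28343 UMIs) led by vomeronasal receptor genes, Pglyrp1 was at 296 and 244 CPM and in 96.6% of cells. The cell types of these clusters were not assigned, and no test was made.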
